A study of Mus musculus with 6 samples.

Results

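The profile described here is that of 1 library, made from the control pool of a study of B16F10 tumours with 6 such pools. It was chosen by its label alone, and its 21474 protein-coding genes were ranked by their level. The mice were female C57BL/6J animals, 8 weeks old, and carried B16F10 melanoma cells injected under the skin. Once the tumours had a blood supply, the control mice received DMSO with a control IgG, and collection followed when control tumours measured 2000 mm3. The control mice thus received vehicle and antibody, and the tumours are called control tumours and not untreated. The other 5 pools received AZD5363 with MK1775, KS100, anti-PD-1 or combinations of these, and nothing here is set against them. Tumours of a group were pooled before RNA was extracted, so differences between mice cannot be seen. The share of each tumour in the pool is not known, and the number of mice per pool is not used here. There are no replicates. Every interval given below is a 95% exact (Clopper-Pearson) interval that covers counting error only, and no test or p-value was possible.

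B16F10 is a subline of a melanoma that arose in a C57BL/6 mouse, selected for its capacity to colonise the lung, and it is widely used as a pigmented, poorly immunogenic tumour. Melanocytes make melanin in melanosomes, organelles related to lysosomes, where tyrosinase oxidises tyrosine and the related enzymes Tyrp1 and Dct act on later intermediates. The transcription factor Mitf drives many of these genes. A tumour under the skin also holds vessels, fibroblasts, blood and white cells of the host, and RNA of the whole tissue carries all of them.

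The library held 1591673 counts on genes. Levels are given in CPM, counts scaled to a total of 1000000, in which 1 count was 0.628 CPM. For a gene or list with no count, 3 counts, or 1.88 CPM, are taken as the upper limit. Reads came from the 3′ ends of transcripts, so CPM was compared between genes without dividing by length, and values per kb of exon are given beside it. Of the 21474 protein-coding genes, 11955 (55.7%) had at least 1 count, and the median over all of them was 1.26 CPM. Protein-coding genes took 98.4% of counts. The 218 genes with 1000 counts or more held 32.4% of the protein-coding counts, and the 3075 genes with at least 100 but fewer than 1000 held 51.6%. The 2911 genes with 1 to 9 counts held 0.653%, and 9519 genes had none. The 10 leading genes took 6.00% of all counts, the 100 leading genes 22.2% and the 1000 leading genes 57.3%.

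**Figure D1:**
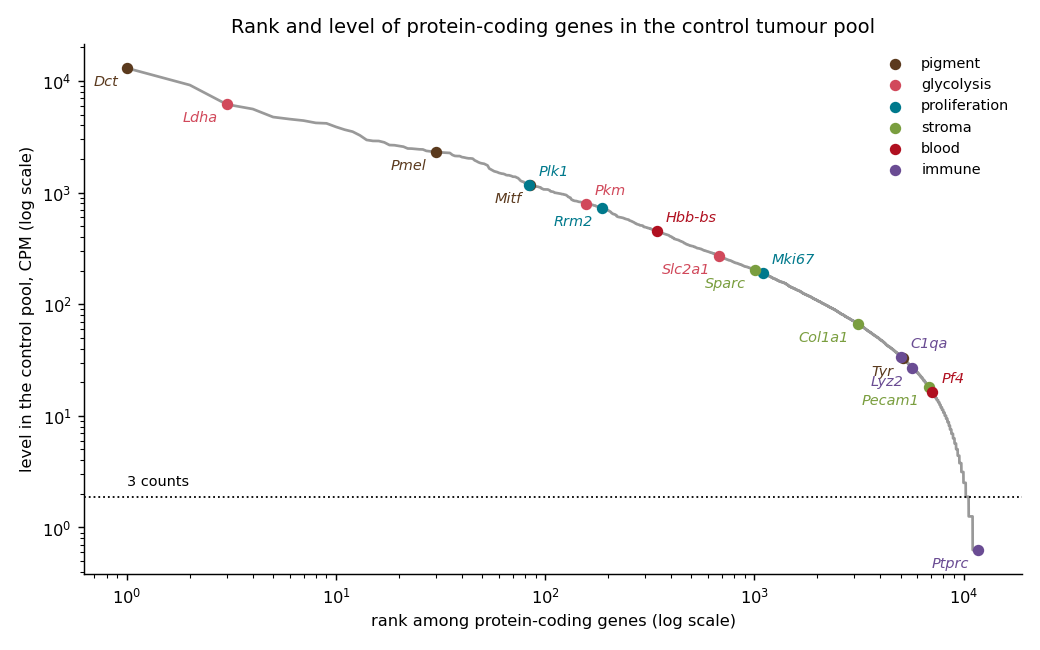
Level of each detected protein-coding gene in the control pool (CPM, log scale) against its rank (log scale), as a grey line, with named genes coloured by group and the level of 3 counts dotted. Dct leads at 13051 CPM, Ldha has rank 3, Plk1 and Mitf lie near rank 85, Col1a1 at rank 3127, Tyr at rank 5123 and the white cell gene Ptprc near the end at 1 count.

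A pigment gene led the library. Dct, which encodes dopachrome tautomerase, had 20773 counts, or 13051 CPM (12875 to 13229), 1.42 times (1.39 to 1.45) the count of mt-Cytb, the second gene. Cytochrome b, encoded by mt-Cytb in the mitochondrial genome, had 14636 counts, or 9195 CPM. Ldha, the lactate dehydrogenase subunit that favours lactate formation, was the third, with 9832 counts, or 6177 CPM. Rplp1, a protein of the ribosomal stalk, followed with 8926 counts. Next came mt-Nd1, a complex I subunit, with 7566 counts. Pigment, respiration, lactate and ribosome genes thus filled the first 5 places.

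The remaining places among the 30 leading genes were held by genes of several kinds. They included the cytosolic chaperone Hsp90ab1 (7252 counts), the adhesion and Wnt pathway protein β-catenin, encoded by Ctnnb1 (7028 counts), and the cytokine Mif (5827 counts). Of the 30 genes, 7 encoded ribosomal proteins, and 3 lay in the mitochondrial genome. Prdx1, a peroxide-reducing enzyme, had 4247 counts and the cytoplasmic actin Actb 3715. Pmel, the second pigment gene, closed the 30 with 3663 counts, or 2301 CPM. Another 8 of the 30 belonged to none of the gene lists used here. Among them were Chchd2 (6706 counts), Hint1 (6643), Ptma (5597), Pcbp1 (4717), Dbi (4231), Hnrnpab (4104) and Rack1 (3955), which include the RNA-binding proteins Pcbp1 and Hnrnpab. Counting error alone left much of this order unsettled: in 12 of the 29 neighbouring pairs the interval of the ratio lay above 1. Per kb of exon, 17 of the 30 stayed among the leading 30, with Rplp1 first, mt-Cytb second, Dct in place 11 and Ldha in place 14.

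The 45 genes of the pigment lists, which cover melanin enzymes, melanosome proteins, regulators of the melanocyte lineage and melanosome transport, took 3.15% of counts (3.12 to 3.18). Of them 43 had a count and 10 were among the 100 leading genes. Their median was 80.4 CPM, above the level of 87.6% of all protein-coding genes. Dct alone made up 41.4% of the sum, and without it the others held 1.87% of the remaining counts. In bulk RNA, more cells of a type and more RNA per cell cannot be told apart, here and for every cell type below.

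The 3 melanin enzymes were far apart. Dct (chr14:118012790-118052244 in GRCm38, minus strand) had 13051 CPM. Tyrp1, the enzyme that acts beside it and stabilises tyrosinase (chr4:80834123-80851719, plus strand), had 3393 counts, or 2132 CPM (2061 to 2205). Tyr, tyrosinase itself, the rate-limiting enzyme of melanin synthesis (chr7:87424771-87493512, minus strand), had 53 counts, or 33.3 CPM (24.9 to 43.6). On the CPM scale Dct stood 6.12 times (5.90 to 6.35) above Tyrp1, and 2.94 times per kb of exon. Dct stood 392 times (299.5 to 523) above Tyr in CPM and 473 times per kb. The order Dct, Tyrp1, Tyr thus held on both scales, and each gap was larger than its counting error. The annotation release and strand setting of the counting are not given here, and their part in the low count of Tyr was not tested. Tyr ranked 5123 among protein-coding genes, although its partner enzymes ranked first and 37.

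Melanosome proteins were led by 5 abundant genes. Pmel, which forms the fibrils on which melanin is laid down, had 3663 counts, Gpnmb, a glycoprotein of melanosomes and lysosomes, 3383, and Slc24a5, a cation exchanger needed for normal pigment, 2373. Mlana, the antigen known as MART-1, had 2212 counts and the transporter Slc45a2 1789. These 5 genes were among the 100 leading ones, and their family had a median of 361 CPM. Lower levels were seen for Tspan10 (574 counts), Oca2 (175), the copper pump Atp7a (77), the receptor Gpr143 (62) and the cystine carrier Slc7a11 (30). Only Tmem163, a zinc transporter, had 0 counts among the 11 members. Pmel stood 69.1 times (52.7 to 92.4) above Tyr in CPM and 214 times per kb, a pair chosen after its values were seen.

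Regulators of the melanocyte lineage were present, but its growth factor receptors differed. Met, the receptor of hepatocyte growth factor, had 2788 counts. Mitf had 1873 counts, or 1177 CPM (1124 to 1231), and Trpm1, a channel gene that Mitf is known to drive, had 1824. Pax3 (695 counts) and Sox10 (374 counts), transcription factors that act above Mitf, were both detected. Mitf exceeded Sox10 5.01 times (4.48 to 5.61) in CPM and 2.47 times per kb, again a pair picked after the values were seen. Mc1r, the melanocortin receptor, had 261 counts. By contrast Kit and Ednrb, receptors on which melanoblasts depend, had 16 and 11 counts, and Lef1, a Wnt pathway factor, had 0.

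The transport group ran from 763 counts for Ap3d1, a subunit of the AP-3 adaptor, to 3 for Lyst. Rab38, which guides cargo to melanosomes, had 747 counts. The 3 parts of the complex that ties melanosomes to actin, Myo5a, Mlph and Rab27a, had 521, 269 and 98 counts. All 16 members had a count, and their median was 60.9 CPM.

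**Figure D2:**
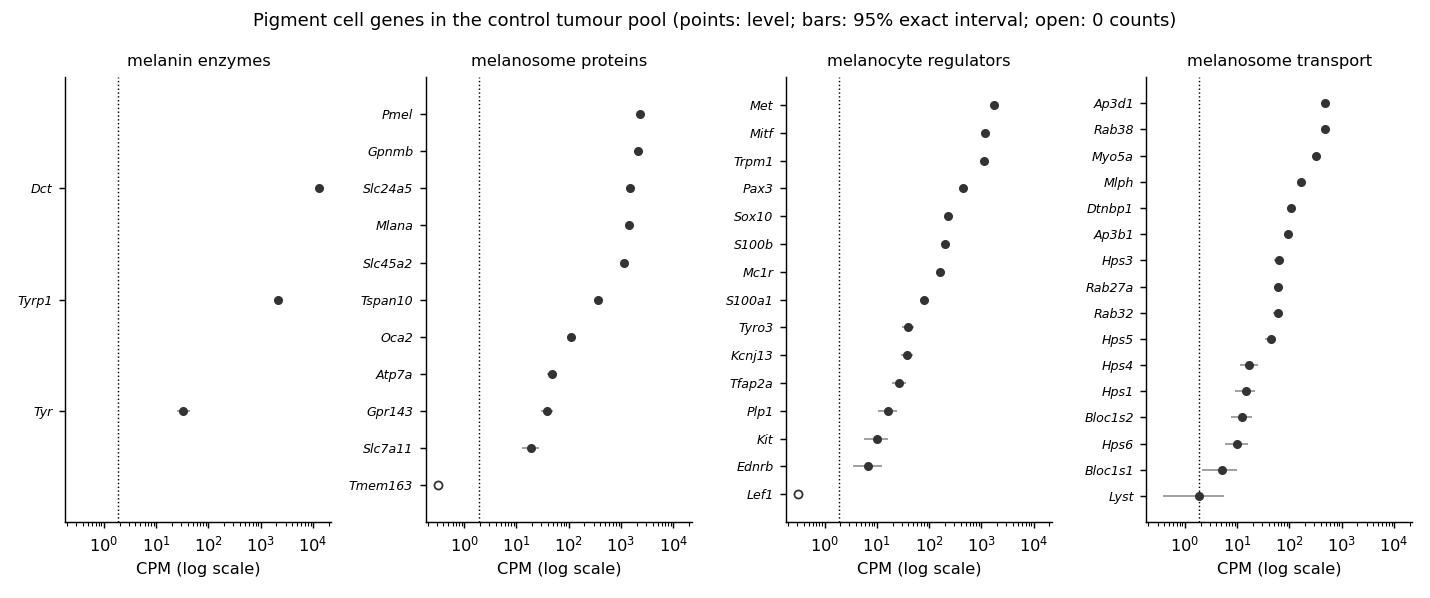
Pigment cell genes of the control pool in 4 groups, each point a gene's level (CPM, log scale) with its 95% exact interval, open points for 0 counts and a dotted line at 3 counts. Dct and Tyr are 392 times apart, 5 melanosome genes lie above 1000 CPM, and Tmem163 and Lef1 have 0 counts.

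The promoters of Dct and Tyr are shown because the pair stood furthest apart among the melanin enzymes while both are known Mitf targets. Each is the 250 bases before the RefSeq start (GRCm38.p6), read 5′ to 3′ on the gene's strand, with the letters CATGTG, a core that Mitf binds, in capitals on either strand (CACATG on the other). The Dct window is chr14:118052247-118052496 and the Tyr window chr7:87493513-87493762, both on the minus strand.
Dct: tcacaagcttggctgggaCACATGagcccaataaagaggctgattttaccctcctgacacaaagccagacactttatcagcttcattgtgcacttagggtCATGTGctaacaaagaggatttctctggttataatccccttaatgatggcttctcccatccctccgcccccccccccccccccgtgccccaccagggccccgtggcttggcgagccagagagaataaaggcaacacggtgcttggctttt
Tyr: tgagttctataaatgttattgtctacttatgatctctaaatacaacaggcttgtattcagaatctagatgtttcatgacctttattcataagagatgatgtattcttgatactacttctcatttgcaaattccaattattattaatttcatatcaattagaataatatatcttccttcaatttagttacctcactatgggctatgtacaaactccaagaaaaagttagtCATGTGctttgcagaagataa
In Dct the matches began 232 and 150 bases before the start, and in Tyr 1 match began 21 bases before it. Both windows thus held the letters, while the counts of Dct and Tyr were far apart. Of 47 windows of the 37 pigment genes with an entry, 12 (25.5%) held CATGTG on either strand, against 1939 of 19931 windows (9.73%) of all protein-coding genes. A match describes letters and not a bound site.

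Genes of the dedifferentiated, neural crest-like melanoma state were low beside the pigment genes. The 14 members took 0.0159% of counts, with a median of 5.65 CPM, above the level of 57.2% of all protein-coding genes. Zeb2, a factor also found in differentiated melanocytes, led with 118 counts, followed by Sox9 (35), Aqp1 (25) and the receptor kinase Axl (23). Ngfr and Sox2 had 0 counts. The list's sum was thus a small part of that of the pigment lists, which hold 45 genes and had a median of 80.4 CPM.

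Among 19 melanoma driver and suppressor genes, 16 had a count. Ctnnb1 (chr9:120929216-120960507) led with 7028 counts, or 4415 CPM, and made up 73.2% of the sum. Nras had 307 counts and Braf, a kinase that acts below it, 71. The suppressor Trp53 had 24 counts. Cdkn2a, which B16 lines are known to have lost, had 0 counts, and its neighbour Cdkn2b had 1. Tert and Mycn also had 0 counts, and Myc had 19. B16 came from a male mouse and the hosts were female: the 4 Y-linked genes measured (Ddx3y, Eif2s3y, Kdm5d and Uty) had 0 counts together, and Xist, the RNA that coats the inactive X chromosome of female cells, had 7.

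Glycolysis splits glucose to pyruvate, and lactate dehydrogenase then regenerates the cofactor by forming lactate, which carriers export. The 27 genes of this pathway took 1.07% of counts (1.05 to 1.08). All 27 were detected, and their median of 148 counts was above 89.2% of protein-coding genes. Ldha (chr7:46841475-46855627, plus strand) held 58.0% of the sum. Without Ldha the other genes held 0.451% of the remaining counts, and with gene families known for copies left out the share was 0.278%.

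Uptake was represented by Slc2a1, the widely expressed glucose carrier, with 428 counts, or 269 CPM (244 to 296). Slc2a3, a neuronal and white cell carrier, had 34 counts and the insulin-dependent carrier Slc2a4 had 6. Slc2a1 exceeded Slc2a3 12.6 times (8.87 to 18.4) in CPM and 26.0 times per kb. The first kinase step was shared, since Hk1 (324 counts) and Hk2 (346 counts) had a CPM ratio of 0.936 (0.802 to 1.09), an interval that includes 1. Per kb the ratio was 0.655. Of the phosphofructokinase genes, Pfkp had 413 counts, Pfkl 145 and Pfkm 14. The aldolase genes Aldoa (581 counts) and Aldoc (532) did not differ beyond counting error in CPM, at a ratio of 1.09 (0.969 to 1.23), and were 1.22 apart per kb.

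In the later steps, Pkm, the pyruvate kinase gene of muscle and of most tumours, had 1268 counts, or 797 CPM, and Tpi1 975. Eno1 had 214 counts, Pgk1 148 and Pgam1 133. Gapdh, an abundant transcript in most tissues, had only 19 counts, or 11.9 CPM (7.19 to 18.6). Gapdh has 71 near-identical gene copies by the search used here, which held 16 counts together. Reads that match several genes may have been dropped or split, and the part of this in its low count was not tested.

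Ldha held most of the counts of the lactate group. It stood 30.4 times (27.2 to 34.1) above Ldhb, the subunit typical of heart, in CPM and 14.4 times per kb. The lactate exporters were lower: Slc16a3 had 92 counts and Slc16a1 59, a CPM ratio of 1.56 (1.11 to 2.20) and 1.30 per kb. Pdk1, the kinase that inhibits pyruvate dehydrogenase, had 413 counts, and the control enzymes Tigar, Pfkfb3 and Pfkfb4 had 70, 36 and 7.

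**Figure D3:**
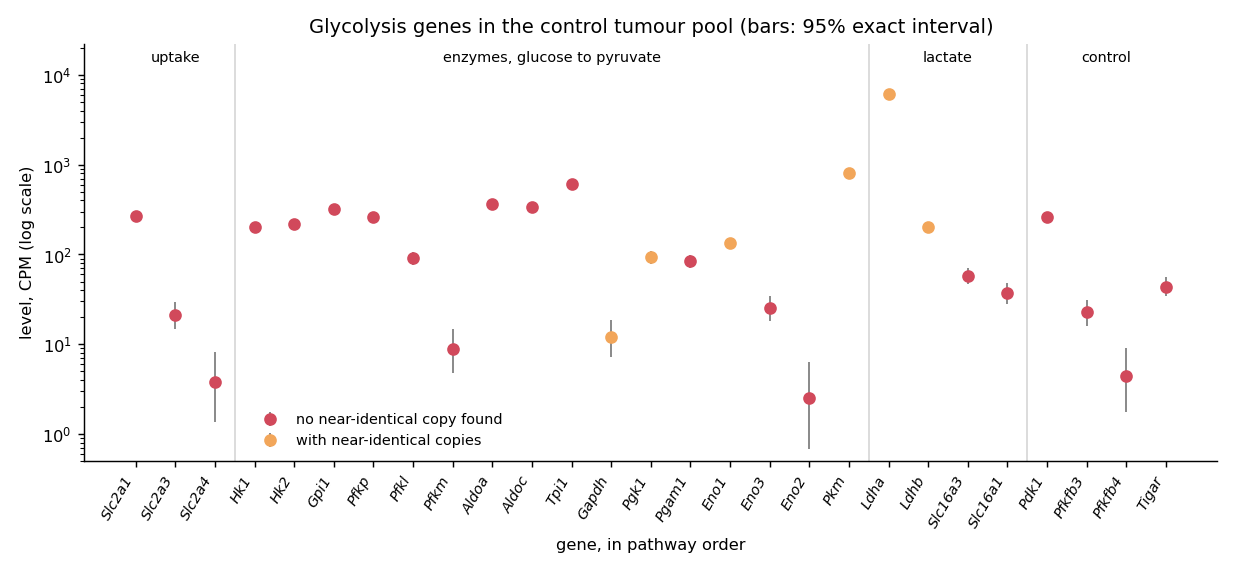
Glycolysis genes in pathway order against their level in the control pool (CPM, log scale) with 95% exact intervals, coloured by whether a near-identical gene copy was found. Ldha stands at 6177 CPM above all others, most enzymes lie between 80 and 800 CPM, and Gapdh, with 71 copies, lies at 11.9 CPM.

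A promoter of Ldha is shown because Ldha led the pathway and is a known target of the hypoxia-inducible factors, whose core site reads ACGTG. The window is the 250 bases before the RefSeq start, chr7:46845554-46845803 (GRCm38.p6, plus strand), with matches on either strand in capitals.
Ldha: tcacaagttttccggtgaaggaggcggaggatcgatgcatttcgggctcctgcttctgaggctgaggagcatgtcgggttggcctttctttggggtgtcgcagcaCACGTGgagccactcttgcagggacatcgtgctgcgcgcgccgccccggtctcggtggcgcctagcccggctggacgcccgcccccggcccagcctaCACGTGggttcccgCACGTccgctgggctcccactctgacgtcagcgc
In all, 5 matches began 145, 144, 48, 47 and 34 bases before the start. The table holds 2 windows for Ldha. The one printed was chosen because it held the letters, and the other had no match. The matches include 2 copies of CACGTG, which holds ACGTG on both strands and counts as 2 overlapping matches. Of 38 windows of 25 glycolysis genes, 14 (36.8%) held ACGTG, against 3594 of 19931 (18.0%) of all protein-coding windows.

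Genes that low oxygen is known to induce were detected in 19 of 20 cases, with a median of 124 CPM, above 92.0% of protein-coding genes. The cytokine Mif held 48.7% of their sum, and 4 near-identical copies of it held 9 counts. The mitophagy receptor Bnip3 had 1390 counts, Higd1a 1065 and the lipid droplet protein Hilpda 810. Vegfa, the main growth factor of vessels, had 264 counts and the carbonic anhydrase Car9 108. Stc2 had 0 counts. Oxygen itself was not measured.

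The 62 respiration genes took 4.33% of counts (4.30 to 4.36), and the 27 glycolysis genes 1.07%. The lists differ in size and some glycolysis genes may be under-counted, so these shares do not weigh the pathways against each other. All 49 nuclear subunits of the respiratory chain had a count, with a median of 293 CPM, led by Cox6c (3917 counts), Atp5g3 (3733) and Cox7c (3310). The 13 genes encoded in mitochondria were uneven. Of these, 6 had 389 counts or more, down from mt-Cytb through mt-Nd1, mt-Nd4 (4165), mt-Co1 (721) and mt-Nd2 (664) to mt-Nd5 (389). The other 7 had 18 or fewer, among them mt-Co2 (18 counts), mt-Co3 (8) and mt-Atp6 (4), and mt-Nd4l and mt-Atp8 had 0. Near-identical nuclear copies held 304 counts for mt-Co2, 84 for mt-Co3, 218 for mt-Atp6 and 54 for mt-Nd3, more than the mitochondrial genes themselves. The low values of these 4 genes are therefore uncertain.

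Proliferation genes were nearly all detected. Of 83 genes 82 had a count, and together they took 1.59% of counts (1.57 to 1.61). The median was 116 CPM, above 91.3% of protein-coding genes, and no gene held more than 7.47% of the sum. The sum was thus spread over many genes, whose levels ran from 1887 counts to 0.

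The G2 and mitosis group ranged from 1887 counts to 3. Birc5, the survivin gene of the chromosomal passenger complex, had 1887 counts, or 1186 CPM (1133 to 1240). Plk1, a mitotic kinase, had 1879 counts, Cks1b, a partner of the cell cycle kinases, 1701, and Top2a, the topoisomerase that untangles chromosomes, 1451. Cdk1, the mitotic kinase that WEE1 restrains, had 1096. A step below came cyclin A2 (Ccna2, 431 counts), the centromeric histone Cenpa (430) and Mki67 (302), the gene of the Ki-67 antigen. Plk1 exceeded Mki67 6.22 times (5.51 to 7.05) in CPM and 28.5 times per kb, a pair chosen after its values were seen. Cyclin B1 (Ccnb1, 216 counts) exceeded cyclin B2 (Ccnb2, 154 counts) 1.40 times (1.14 to 1.74) in CPM, whereas per kb the ratio turned to 0.509. Mybl2 was lowest, at 3 counts.

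Replication and nucleotide supply showed the same breadth, with all 28 genes detected at a median of 160 CPM. Dut, which removes dUTP, had 1181 counts and Rrm2, the regulated subunit of ribonucleotide reductase, 1169. The maintenance methyltransferase Dnmt1 had 712. The 6 subunits of the MCM helicase summed to 2612 counts, led by Mcm2 with 613, and the sliding clamp Pcna had 428. Slbp, which binds histone mRNA, was lowest at 24 counts.

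Among G1 genes, the D-type cyclins were close in CPM: Ccnd2 had 293 counts, Ccnd1 245 and Ccnd3 241. Ccnd1 was below Ccnd2 at a ratio of 0.836 (0.703 to 0.994), but above it per kb at 1.67. Their partner Cdk4 stood 8.53 times (5.83 to 12.9) above Cdk6 in CPM and 36.7 times per kb. Cyclin E1 (Ccne1) stood 3.60 times (2.29 to 5.85) above cyclin E2 (Ccne2), and 4.73 times per kb. The inhibitors Cdkn1b and Cdkn1a had 166 and 105 counts, and Cdkn1c had 0.

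**Figure D4:**
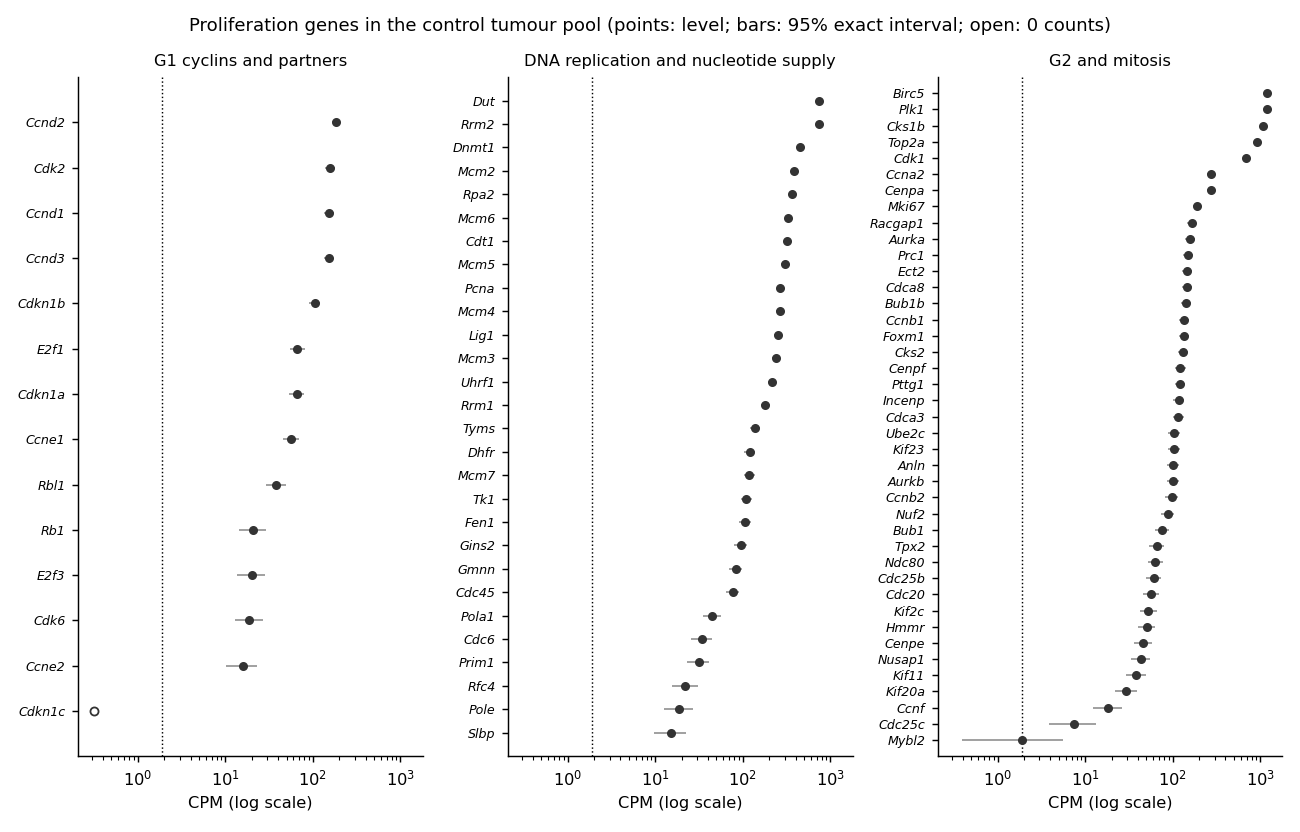
Proliferation genes of the control pool in 3 groups, each point a gene's level (CPM, log scale) with its 95% exact interval, an open point for 0 counts and a dotted line at 3 counts. Birc5, Plk1 and Cks1b lie above 1000 CPM, most mitotic genes fall between 30 and 200 CPM, and Cdkn1c has 0 counts.

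The Top2a promoter is shown by a rule that required a match. Top2a had the most counts in the G2 and mitosis group among genes whose window held the letters TTTGAA and overlapped no annotated exon. Its matches were therefore set by the choice. TTTGAA is the core of the cell cycle genes homology region, which many mitotic genes carry near their start. The window is the 250 bases before the RefSeq start, chr11:99024190-99024439 (GRCm38.p6, minus strand), with TTTGAA, or TTCAAA on the other strand, in capitals.
Top2a: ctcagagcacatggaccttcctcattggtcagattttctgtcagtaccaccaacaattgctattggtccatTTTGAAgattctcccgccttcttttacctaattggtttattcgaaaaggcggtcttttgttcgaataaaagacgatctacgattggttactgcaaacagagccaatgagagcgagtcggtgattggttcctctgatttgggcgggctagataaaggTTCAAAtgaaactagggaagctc
Matches began 179 and 23 bases before the start. Of 36 windows of 34 genes of the G2 and mitosis group, 13 (36.1%) held the letters on either strand, against 2717 of 19931 (13.6%) of all protein-coding windows. The windows of Birc5 and Plk1, the highest genes of the group, held none.

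Protein synthesis and folding made up a large block of the profile. Ribosomal protein genes took 7.91% of counts (7.87 to 7.95), with 77 of 80 detected and 24 among the 100 leading genes. Detected members were uneven, from 8926 counts for Rplp1 down to 48 for Rps6 and 9 for Rpl24, and the reason was not tested. Translation factors took 1.20%, led by Eef1b2 (4624 counts) and Eif4g2 (1867). Eef1a1, usually among the most abundant transcripts of a cell, had 220 counts, and Eef2 stood 8.21 times (7.14 to 9.49) above it in CPM and 6.16 times per kb. Eef1a1 has 7 near-identical copies, which held 3 counts. Chaperones took 2.12%: Hsp90ab1 stood 4.59 times (4.35 to 4.85) above Hsp90aa1 in CPM and 6.02 times per kb, and in the endoplasmic reticulum Pdia6 had 3888 counts and Hspa5, the BiP gene, 2929.

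Lysosome genes, relevant because melanosomes share their origin, took 0.845% of counts, and all 22 were detected. Cd63, a tetraspanin that sorts Pmel, had 3251 counts, followed by Psap (1607), Npc2 (1297) and Laptm4a (1171). Iron and redox genes took 1.11%. The metallothioneins Mt1 (3224 counts) and Mt2 (1528), which bind zinc and copper, were both high, as was the transferrin receptor Tfrc (1299). Ferritin heavy chain (Fth1, 2354 counts) stood 46.2 times (35.0 to 62.2) above the light chain (Ftl1, 51 counts) in CPM and 17.8 times per kb, with 128 counts on 5 near-identical copies of Ftl1. Gstp1 had 0 counts, and its 2 copies held 44. Cytoskeletal genes took 1.22%, led by Actb (3715 counts) and the tubulin genes Tuba1c (3647) and Tuba1b (2208), which have near-identical relatives.

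Marker genes of host stroma took a small part of the counts. The 64 genes of fibroblasts and matrix, mural cells, endothelium and its basement membrane took 0.190% of counts (0.184 to 0.197), although 59 of them were detected. Their median was 11.6 CPM, above 63.3% of protein-coding genes. None was among the 100 leading genes. Per kb of exon the share was 0.111%. Tumour cells can also express several of these genes, so the share does not measure host cells.

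Of the 26 fibroblast and matrix genes 25 were detected, with 1745 counts. The highest were Timp2 (387 counts), Sparc (323), Timp3 (302) and fibronectin, Fn1 (278), none of which is specific to fibroblasts. Collagens were lower: Col1a1 (chr11:94936224-94953042) had 106 counts, or 66.6 CPM (54.5 to 80.5), Col1a2 40 and Col3a1 29. The chains of type I collagen stood at 2.65 (1.83 to 3.91) in CPM and 5.02 per kb, Col1a1 over Col1a2. Some fibroblast genes were near the limit, with 6 counts for Dcn, 2 for Pdgfra and 1 each for Lum and Fap. Mfap5 had 0 counts. Other members were higher, among them Mgp (104 counts), Bgn (47) and Col6a3 (32). Of the 26 genes, 13 had 10 counts or more. The list was thus uneven, and its low members do not stand for all fibroblast markers.

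Of the endothelial genes 19 of 21 were detected, with 656 counts. Kdr, the main receptor of VEGF, had 132 counts, or 82.9 CPM (69.4 to 98.3), Egfl7 113 and Eng 100. The junction genes Pecam1 and Cdh5 each had 29. Vwf had 3 counts, and Lyve1, a lymphatic marker, and Sox18 had 0. Basement membrane genes were all detected, from Col4a1 (91 counts) and Lamc1 (79) to Hspg2 (21), and Col4a1 stood 3.64 times (2.32 to 5.92) above Col4a2 in CPM and 3.23 times per kb. Mural cells had Mcam (141 counts), which melanoma cells also express, and the pericyte gene Rgs5 (87). Pdgfrb had 18 counts and the smooth muscle actin Acta2 19, while Tagln and Cnn1 had 0.

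Markers of neighbouring tissue had few counts, most of them on genes that other cells also express. Skeletal muscle genes summed to 115 counts, of which the muscle actin Acta1 held 52 and titin, Ttn, 16. Of the 16 muscle genes 14 were detected, 2 of them with 10 counts or more, and Tnnc2, Tnni2 and Myl1 had 7 each. Among fat cell genes Fabp4 had 145 counts and Lpl 57, genes that endothelium or macrophages can also express, whereas Adipoq had 1 and Plin1, Plin4, Cfd, Cidec, Pparg and Retn had 0. All 5 keratins measured, Krt1, Krt5, Krt10, Krt14 and Krt15, had 0 counts, and Lgals7, with 14, led the skin epithelium list. Of the Schwann cell list Cdh19 had 230 counts and Mbp 186, genes shared with the melanocyte lineage, while Prx and Ncmap, genes of myelinating Schwann cells, had 0. The keratins and these myelin genes were thus without counts in this library.

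Blood was detected mainly as globin. The red cell and platelet genes took 0.0719% of counts (0.0678 to 0.0762), with 10 of 19 detected, and Hbb-bs held 63.3% of the sum. This share was 0.218% per kb of exon, 0.0173% with gene families known for copies, the globins among them, left out, and 0.0264% of the remaining counts without Hbb-bs. Hbb-bs (chr7:103826534-103828096) had 724 counts, or 455 CPM (422 to 489), and Hbb-bt 130. The α-globin genes Hba-a1 and Hba-a2, which are near-identical, had 27 each. The 4 globin genes summed to 570 CPM (534 to 609). Bpgm, an enzyme that sets the oxygen affinity of haemoglobin and is also found outside red cells, had 181 counts. Alas2, the haem synthesis gene of red cell precursors, had 3, and the membrane genes Slc4a1 and Epb42 had 0. Of platelet genes Pf4 had 26 counts and the integrin Itgb3 23, while Ppbp, Gp1ba, Gp1bb and Treml1 had 0.

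White cell markers were close to the limit of the library. The 109 immune cell markers took 0.0452% of counts (0.0419 to 0.0486), 51 of them were detected and their median was 0 CPM, against 1.26 CPM for all protein-coding genes. Per kb of exon the share was 0.0689%. Arhgdib held 40.8% of the sum, and without it the others held 0.0268% of the remaining counts. With 293 counts it stood apart from the rest of the list shared by white cells, in which Lcp1 had 36 counts, Fcer1g 14 and Ptprc, the CD45 gene, 1. The 10 other genes of that list summed to 83 counts, or 52.1 CPM (41.5 to 64.6). Whether Arhgdib came from white cells or from other cells was not tested.

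Macrophages were the best represented white cells, with 18 of 22 markers detected and 220 counts. The complement genes C1qa, C1qb and C1qc, typical of tissue macrophages, summed to 88 counts, or 55.3 CPM (44.3 to 68.1), of which C1qa (chr4:136895917-136898803) had 54. Lysozyme, Lyz2, had 43 counts. Cd68 and Mrc1 had 15 each, Adgre1, the F4/80 gene, 8 and Csf1r 7. The monocyte and activation genes Cd14, Ccr2, Ly6c2 and Nos2 had 0 counts, and Arg1 had 1. A near-identical copy of Ly6c2 held 12 counts, so its 0 is uncertain.

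Lymphocytes and granulocytes were nearly absent from the counts. In the T cell list 7 of 20 genes had a count, and Tcf7 (20) and Lck (8) held most of its 33. The remaining 18 genes summed to 5 counts. The CD3 subunit genes Cd3d, Cd3e and Cd3g had 0 together, which allows up to 1.88 CPM. Cd4, Foxp3 and Trac also had 0, while Cd8a had 1. Of 26 counts in the cytotoxic list the chemokine Ccl5 held 20. Gzmb had 1 and Prf1, Nkg7 and Ncr1 had 0. Fscn1 (31) and Zbtb46 (22), which other cells also express, made up most of the 59 counts of the dendritic list, and its other 8 genes summed to 6. The neutrophil list held 2 counts, with 0 for Ly6g and Csf3r. B and plasma cells held 3, and none of the 8 mast cell and eosinophil genes had a count. At this depth, T, B and granulocyte transcripts were therefore at or near the limit of detection, which does not show that the cells were absent.

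**Figure D5:**
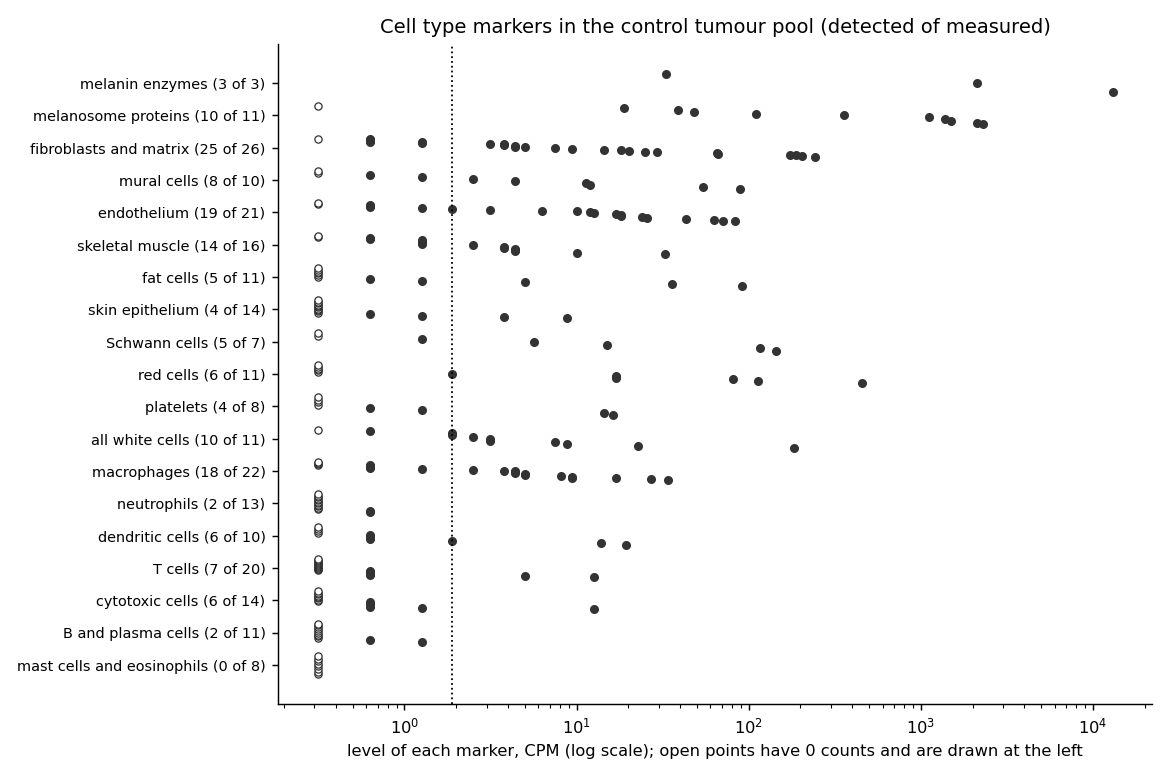
Markers of each cell type in the control pool, each point a gene's level (CPM, log scale), open points at the left for 0 counts and a dotted line at 3 counts, with the number detected of those measured beside each name. Pigment genes reach 13051 CPM, endothelial genes reach 82.9 CPM, macrophage genes reach 33.9 CPM, and the mast cell and eosinophil list has 0 of 8 detected.

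Checkpoint genes were low or at 0. Of 10 receptors and ligands 3 had a count: Cd47, the signal that inhibits phagocytosis, had 41, Cd274, the PD-L1 gene, 6 and Cd86 2. Pdcd1, the gene of PD-1, had 0, as did Ctla4, Lag3, Havcr2, Tigit, Cd80 and Pdcd1lg2.

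Antigen presentation was led by class I. All 13 genes of the class I pathway were detected, with 1315 counts for B2m (826 CPM, 782 to 872), the shared light chain, 322 for the heavy chain H2-K1 and 212 for H2-D1. The peptide transporter Tap1 had 86 counts, and the immunoproteasome gene Psmb8 and the class I activator Nlrc5 had 6 each. Class II was lower. Its chains H2-Aa, H2-Ab1 and H2-Eb1 summed to 65 counts, or 40.8 CPM (31.5 to 52.1), and the invariant chain Cd74 had 28. Ciita, the class II activator, had 0 counts. The protease Ctss (123 counts) and the reductase Ifi30 (93) led the class II list, and both also occur in other lysosome-rich cells.

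Of 22 genes induced by interferon, 21 had a count. Bst2 led with 322 counts, followed by Ifitm3 (246), the transcription factor Irf1 (144) and the chemokine Cxcl10 (119). Irf7 had 0. In the list of chemokines and cytokines, 24 of 30 were detected at a median of 3.14 CPM, above 53.5% of protein-coding genes. Osteopontin, Spp1 (84 counts), and Tgfb2 (74) led this list. The higher Mif and Cxcl10 were counted in other lists. Csf1, the growth factor of macrophages, had 28, and Il6, Il10, Csf2, Cxcl2, Fgf2 and Hgf had 0. Hgf at 0 stood beside 2788 counts for its receptor gene Met.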

How the data were processed

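RNA was measured in 6 pools of tumours, of which the control pool was analysed. Per the labels' protocols, RNA from 30 to 60 mg of tissue was made into QuantSeq 3′ libraries, primed with oligo-dT, and read for 151 cycles. The authors deposited 1 table of raw read counts per gene, made with bcl2fastq, HISAT2 2.1.0 and HTSeq on GRCm38, per the submitters' processing notes. For the annotation release, the strand setting and multiply matching reads, the choice made is not given in the sources used here. Overlapping and antisense genes, and genes with near-identical copies, are therefore uncertain.

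The table held 43721 rows. Its 92 spike-in rows, all at 0, were left out, and 42462 of 43629 genes had an entry in GENCODE M21, which gave symbols, types and coordinates. The 1167 others held 0.200% of counts. CPM was the count over the pool's 1591673 gene counts. The other pools held 25521 to 1002088 counts. Intervals of shares and ratios were exact (Clopper-Pearson, scipy 1.17.1) and cover counting error only, since the reads carry no molecular identifiers in the table. They were tested on simulated data drawn with counting error alone. That test checks the calculation and cannot show how the intervals behave under other errors.

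Near-identical copies were other genes with at least 95% identity over at least 50% of the longest transcript (blastn 2.17.0, 813 genes searched, 76 with copies). Copies shorter than this are missed, so a gene for which none was found may still have some. Promoter windows came from RefSeq (GRCm38.p6), and those printed were chosen to hold the letters and to overlap no annotated exon. The 48 gene lists held 764 genes, 763 of them in the table, and Ahsp was not analysed here. Some genes are not reported here. The text names the 30 leading genes, the 4 highest members of each list and those at 0, defining cell markers and paralog pairs. Members that fall outside this rule were chosen after their values were seen. The members, lists and rule were chosen with earlier results of these data known. Alternatives were another denominator, leaving out ribosomal proteins and a hand-written list of genes from families known for pseudogenes or close paralogs, division by exon length, and a lower depth.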

Additional observations from a re-analysis of the deposited data

How the results depend on the processing

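Samples were not compared, so the alternatives bear on shares and on the order of genes. Per kb the order of Ccnb1 and Ccnb2 and that of Ccnd1 and Ccnd2 turned (ratios of 0.509 and 1.67). Over nuclear protein-coding counts the pigment share was 3.26%, glycolysis 1.10% and proliferation 1.64%, while stroma, blood and immune shares stayed within their intervals. With ribosomal proteins and a list of genes from families known for pseudogenes or close paralogs left out of sums and totals, pigment took 3.68%, glycolysis 0.278%, proliferation 1.85%, stroma 0.222%, blood 0.0173% and immune genes 0.0527%. Ldha and all 4 globin genes are among those left out. Per kb of exon the shares were 2.25%, 0.81%, 1.34%, 0.111%, 0.218% and 0.0689% in the same order, so blood exceeded stroma on that scale, and on no other run. Without its highest gene in sum and total, an alternative added after seeing the data, each share was 1.87%, 0.451%, 1.47%, 0.166%, 0.0264% and 0.0268%. Detected protein-coding genes numbered 9044 at 10 counts or more and 5874 expected at the depth of the shallowest pool. Of the 30 leading genes 17 stayed per kb and 15 with those families and ribosomal proteins left out. No paired analysis was possible because the control pool is 1 library and its values come from no test. Depth limits genes under 3 counts (1.88 CPM).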

Other observations

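RNA without a protein product was a small part of the control pool. Gas5, a host gene of small nucleolar RNAs, led with 1372 counts, or 862 CPM (817 to 909), and 2 more such host genes, Zfas1 and Snhg3, had 323 and 277. The paraspeckle RNA Neat1 had 671 counts and Malat1, a nuclear speckle RNA that is among the most abundant in many cells, 188. The mitochondrial ribosomal RNAs mt-Rnr1 and mt-Rnr2 had 1061 and 780 counts. Processed pseudogenes took 0.332% of counts on 348 of 5349 genes, and Rps13-ps2, a copy of a ribosomal protein gene, held 1034 of them. The search for near-identical copies found none for Rps13, so that search was not complete.

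Cholesterol synthesis was detected throughout, with all 21 genes above 0 and a median of 80.4 CPM, above 87.6% of protein-coding genes. Fdps (819 counts), Msmo1 (739), Cyp51 (698) and Sqle (548) led, and Idi1 was lowest at 15. All 16 immediate early genes were detected as well, at a median of 44.5 counts. Ier3 led them with 291 counts, Jund had 160 and Fos 50. Beyond the lists, 35 of the 100 leading genes were in none. They included the polyubiquitin gene Ubb (3659 counts), the nucleolar protein Npm1 (3607), the mitochondrial phosphate carrier Slc25a3 (3462) and the fatty acid desaturase Scd2 (2887).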
